A study of Mus musculus with 12 samples.

Results

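Accessible chromatin of mouse cells labelled EF_IGF1 or EF_IGF1_xeno was compared with that of wild-type cells. The comparison used 6 of the 12 ATAC-seq libraries of the series, all from flowcell BSF_1013. The 3 libraries with an EF label were EF_IGF1 replicate 1 (line S_220), EF_IGF1 replicate 2 (line S_221) and EF_IGF1_xeno (line S_221). They were set against Wt replicate 3 (titled BM_unt), Wt_IGF1 (titled BM_IGF1) and Wt replicate 4 (titled S_203_0). Peaks that overlapped in any of the 12 libraries were joined, which gave 153346 regions on chromosomes 1 to 19 and X. A gained region carried a peak in 3 of 3 EF_IGF1 and xeno libraries and in 0 of 3 Wt and Wt_IGF1 libraries, and a lost region the reverse. These rules found 4308 gained and 9132 lost regions.

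All libraries came from cells labelled MSCLCs, and the series title speaks of bone mesenchymal stem cells, EWS::FLI1, YAP1 and IGF-1. The labels give no age or sex and do not spell out EF, xeno or MSCLCs. They also do not say how EF is expressed, whether a line is 1 clone or whether libraries came from separate animals, so p-values measure only the spread between these libraries. All 3 EF libraries of the comparison carried the IGF1 label, against 1 of the 3 wild-type libraries, and 1 of them also carried the xeno label. The genotype, IGF1 and xeno labels thus cannot be told apart as sources of a difference here.

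In ATAC-seq a transposase inserts sequencing adapters into open DNA, so a peak marks a promoter, an enhancer or another site free of dense nucleosomes. EWS::FLI1 is the fusion oncoprotein of Ewing sarcoma, in which the ETS domain of FLI1 binds GGAA motifs in DNA. YAP1 is the transcriptional co-activator that the Hippo kinases hold out of the nucleus and that acts through TEAD factors, often beside AP-1. IGF-1 signals through the receptor Igf1r to the PI3K and AKT kinases, and mesenchymal stem cells can form bone, cartilage and fat.

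Sequences are shown for promoters where gained and lost regions were strongest. Of 32619 RefSeq promoter windows (GRCm38.p6, 250 bases before to 50 after a start), 163 windows of 153 genes overlapped a gained region and 733 windows of 668 genes overlapped a lost region. The 3 windows of each direction with the highest −log10 p in their weakest library follow, as the 250 bases before the start, 5′ to 3′. Capitals mark the motifs CCGGAA (ETS core), GGAAGGAA (GGAA repeat), GGAATG (TEAD), TGANTCA (AP-1) and TGACGTCA (CRE), searched on both strands. For gained regions they were Mad1l1 (chr5:140174919-140175168 on the minus strand), Aim2 (chr1:173420354-173420603 on the plus strand) and Palm3 (chr8:84021224-84021473 on the plus strand). The Palm3 region overlapped 182 bases of its window, and its summit, 303 bp from a start, lay outside the printed bases.
Mad1l1: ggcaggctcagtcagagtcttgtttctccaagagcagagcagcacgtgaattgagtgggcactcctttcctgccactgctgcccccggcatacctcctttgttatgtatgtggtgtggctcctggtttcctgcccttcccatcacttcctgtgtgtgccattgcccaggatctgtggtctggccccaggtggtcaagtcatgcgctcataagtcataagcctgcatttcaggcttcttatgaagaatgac
Aim2: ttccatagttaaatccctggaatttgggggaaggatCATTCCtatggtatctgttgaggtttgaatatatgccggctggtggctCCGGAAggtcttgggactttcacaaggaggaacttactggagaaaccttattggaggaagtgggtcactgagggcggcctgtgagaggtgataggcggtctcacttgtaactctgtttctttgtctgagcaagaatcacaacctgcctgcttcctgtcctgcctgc
Palm3: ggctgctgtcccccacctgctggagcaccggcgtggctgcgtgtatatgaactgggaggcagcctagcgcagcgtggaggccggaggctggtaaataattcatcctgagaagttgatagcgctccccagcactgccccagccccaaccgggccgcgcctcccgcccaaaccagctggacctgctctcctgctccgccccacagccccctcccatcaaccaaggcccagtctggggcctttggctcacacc
For lost regions they were Vamp9 (chr5:99906015-99906264 on the plus strand), Hykk (chr9:54917040-54917289 on the plus strand) and Adamts17 (chr7:66839485-66839734 on the plus strand).
Vamp9: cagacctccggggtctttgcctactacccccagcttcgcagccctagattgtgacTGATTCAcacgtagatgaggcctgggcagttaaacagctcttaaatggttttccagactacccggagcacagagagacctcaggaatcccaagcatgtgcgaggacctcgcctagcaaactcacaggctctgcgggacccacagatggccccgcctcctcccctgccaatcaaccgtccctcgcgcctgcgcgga
Hykk: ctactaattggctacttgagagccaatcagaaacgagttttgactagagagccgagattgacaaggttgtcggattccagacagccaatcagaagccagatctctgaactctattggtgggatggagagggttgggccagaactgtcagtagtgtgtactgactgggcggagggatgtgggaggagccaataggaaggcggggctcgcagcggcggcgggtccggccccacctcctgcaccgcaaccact
Adamts17: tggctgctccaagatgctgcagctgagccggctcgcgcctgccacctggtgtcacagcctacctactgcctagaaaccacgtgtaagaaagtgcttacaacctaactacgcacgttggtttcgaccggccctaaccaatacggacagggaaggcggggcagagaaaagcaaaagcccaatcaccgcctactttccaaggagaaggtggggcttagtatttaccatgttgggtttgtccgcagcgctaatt

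The line label of EF_IGF1 replicate 1 was set beside the calls. Of 8244 regions called in both S_220 EF libraries and in neither S_221 EF library, 8.39% were called in EF_IGF1 replicate 1, 12.3% in EF_IGF1 replicate 2 and 4.57% in EF_IGF1_xeno. The wild-type libraries called 27.9% (Wt replicate 3), 44.4% (Wt_IGF1) and 36.4% (Wt replicate 4) of them. Of 3946 regions called in both S_221 EF libraries and in neither S_220 library, the 3 EF_IGF1 and xeno libraries called 68.9%, 78.4% and 61%, and Wt replicate 3, Wt_IGF1 and Wt replicate 4 called 53.5%, 71.9% and 62.1%. The library labelled S_220_IGF1 thus called fewer of the S_220 regions than any of the 3 wild-type libraries. Its share of the S_221 regions lay between those of EF_IGF1 replicate 2 and EF_IGF1_xeno, but also within the wild-type range. The S_221 regions therefore do not tell the lines apart, and whether the label or the condition accounts for the low S_220 share was not tested. Results are given with the library labelled S_220 and, where stated, without it.

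Depth also moved with the groups. EF_IGF1 replicate 1, EF_IGF1 replicate 2 and EF_IGF1_xeno held 59290, 63463 and 43376 peaks, against 57297 in Wt replicate 3, 83679 in Wt_IGF1 and 69662 in Wt replicate 4. The means were 55376 ± 10600 and 70213 ± 13200 (SD, n = 3 each), and the groups overlapped (exact permutation test, two-sided, p = 0.3, smallest possible p = 0.1). The number of reads at each peak's summit and its local background were solved from the authors' fold and p-value. The genome background, the most frequent local background of a library and a stand-in for its depth, was 1.56, 1.47 and 1.8 reads in the EF_IGF1 and xeno libraries. It was 0.574, 1.04 and 1.11 reads in the wild-type libraries, with no overlap (exact permutation test, two-sided, p = 0.1). The weakest summit of a list held 8 to 9 reads in the EF_IGF1 and xeno libraries and 5 to 7 in the wild-type libraries, so a missing peak does not show that a site was closed. The part of depth in the calls was not tested beyond the alternatives below.

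At the Mad1l1 start, a gene of the spindle checkpoint, 87, 80 and 95 summit reads were found in EF_IGF1 replicates 1 and 2 and EF_IGF1_xeno, and no Wt or Wt_IGF1 library of the comparison had a peak. At Aim2, a sensor of DNA in the cytosol, the same 3 libraries had 69, 61 and 65 reads, and Wt replicate 2, outside the comparison, had 67. At Palm3, a paralemmin, they had 99, 82 and 82. These 3 starts were ranked by the weakest of the same 3 libraries, so high reads in each of them, xeno included, follow from the choice. Mad1l1 was also called in all 4 EF libraries, which took no part in the rule, with 28 and 40 reads in EF replicates 1 and 2 and 34 and 166 in EF replicates 3 and 4.

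The lost promoters had no peak in the 3 EF_IGF1 and xeno libraries. At Vamp9 the summit held 65, 88 and 90 reads in Wt replicate 3, Wt_IGF1 and Wt replicate 4. At Hykk, which phosphorylates hydroxylysine, they had 49, 83 and 91 reads, and at Adamts17, a secreted metalloprotease, 43, 77 and 79. Vamp9 was called in all 4 EF libraries as well, so its absence was shared by the EF_IGF1 and xeno libraries and not by EF. Hykk and Adamts17 were each called in 3 of the 4 EF libraries, Hykk missing in EF replicate 4 and Adamts17 in EF replicate 2.

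Gained regions made up 2.81% and lost regions 5.96% of all 153346 regions. Another 24632 regions were called in all 6 libraries and 40462 in none of them. Just outside the rules, 4333 regions were called in 2 of 3 EF_IGF1 and xeno libraries and no wild-type library, and 11066 showed the reverse. The sum of gained and lost regions, 13440, was the highest among the 10 ways to divide the 6 libraries into 3 and 3, with 1105 for the next (exact permutation, p = 0.1, the smallest possible). In these bulk libraries, an opening in fewer cells and a weaker opening in each cell cannot be told apart.

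The excess of lost over gained regions depended on the length of the lists. When each library kept only its 43376 strongest peaks, the length of the xeno list, 5347 regions were gained and 5275 lost. Without the library labelled S_220_IGF1 the counts were 4826 gained and 9904 lost. Without EF_IGF1_xeno, gained regions numbered 6927 and lost regions 9299. Lost regions numbered 14405 without Wt replicate 3 and 14401 without Wt replicate 4.

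The 6 libraries outside the comparison took no part in the rules for gained and lost regions. Their peaks did enter the merged regions, of which 40462 were called only in these 6 libraries. Their shares of all regions are thus raised by construction, and setting gained or lost regions beside them is a description only. Of the 4308 gained regions, EF replicate 4 (line S_221) called 69.7% (95% Clopper-Pearson interval 68.3 to 71.1), against 42.4% of all regions. EF replicates 1, 2 and 3 called 18.4%, 14.1% and 14.1% of them, against 32.5%, 16.7% and 32.9% of all regions. Wt replicates 1 and 2 called 0.302% and 10.9%, against 4.87% and 38.4%. With these lists, EF replicate 4 was the 1 library of the 6 that called gained regions more often than all regions, but with equal list lengths EF replicate 2 did so too, at 24.5% against 23.5%. Of the 36099 regions called in all 3 EF_IGF1 and xeno libraries, EF replicates 1 to 4 called 69.9%, 57.9%, 68.8% and 93.7%, so each of the 4 called gained regions less often than these. Of the gained regions, 2482 (57.6%) were called in EF replicate 4 and not in EF replicate 3, 522 in both and 84 in EF replicate 3 alone.

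Lost regions were read less often than all regions in EF replicates 2 and 4, of line S_221. EF replicate 4 called 26.8% of the 9132 lost regions and EF replicate 2 called 6.24%. In EF replicates 1 and 3, of line S_220, the shares were 32.8% and 33.3%, close to their shares of all regions. Of the 43048 regions called in all 3 Wt and Wt_IGF1 libraries, EF replicates 1 to 4 called 66.1%, 46.8%, 67.4% and 78.7%, more than of lost regions in each of the 4. Wt replicate 2 called 26.6% of lost regions, below its 38.4% of all regions, and Wt replicate 1 called 2.10%. None of the 4 EF libraries called 4380 lost regions (48.0%) and 1164 gained regions (27%). Intervals cover counting error only, and the line names recur between these libraries. The shares of all regions are raised by construction here too.

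**Figure D1:**
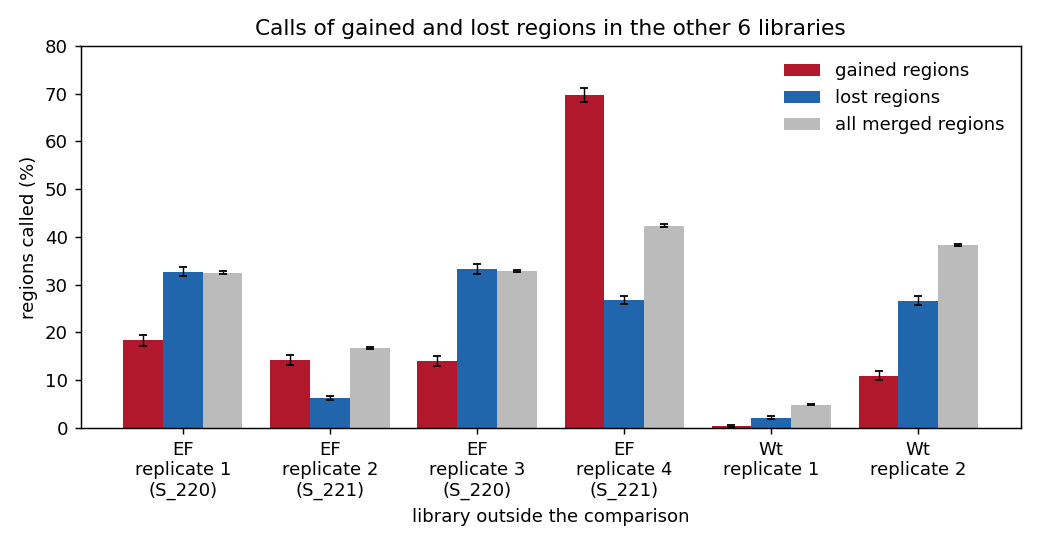
Percent of gained, lost and all merged regions called in each of the 6 libraries outside the comparison, with the line of the EF libraries in brackets; bars are shares and whiskers 95% Clopper-Pearson intervals. EF replicate 4 called 69.7% of the gained regions, and no other library of these 6 called over 18.4%.

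Gained and lost regions lay mostly away from promoters. A protein-coding gene began or ended within 1 kb of the summit at 6.01% of gained and 7.98% of lost regions, against 10.8% of all regions and 33.5% of regions called in all 6 libraries. Within 5 kb of a gene end the order of the 2 sets turned, with 22.5% of gained and 17.6% of lost regions, against 23.6% of all. The median distance to a RefSeq transcription start was 19440 bp for gained, 27136 bp for lost and 21355 bp for all regions. Inside a gene lay 46.0% of gained and 53% of lost regions, against 52.1% of all.

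Regions were ranked by the −log10 p of their weakest library among the 3 that defined them. The strongest gained region lay 30029 bp from Slc38a4, an amino acid transporter gene, at chr15:97085521-97086536. It had 146, 120 and 99 summit reads in EF_IGF1 replicates 1 and 2 and EF_IGF1_xeno, and no peak in the 3 wild-type libraries. The next lay inside Wwc1, which encodes KIBRA, an upstream activator of Hippo signalling, at chr11:35970437-35971851, with 156, 128 and 130 reads. EF replicate 4 had 93 reads near Slc38a4 and 21 at Wwc1, and EF replicates 1 and 3 had no peak at either. Wwc1 held 3 gained and 0 lost regions in all.

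Inside Ptprt, a receptor tyrosine phosphatase gene, the strongest region (chr2:162282480-162283409) had 157, 129 and 104 reads in the EF_IGF1 and xeno libraries. EF replicate 4 had 116 reads there and EF replicate 2 had 14. Inside Cadm1, an adhesion molecule gene, the 3 libraries had 107, 90 and 90 reads, and 113, 109 and 89 near Gm14139. The Cadm1 region was also called in Wt replicate 2, outside the comparison, with 69 reads.

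The strongest lost regions were near Nectin3 (chr16:46586989-46587607), an adhesion gene, and in the formin gene Diaph3 (chr14:86757633-86758656), besides the Vamp9 promoter and 2 regions of chromosome 18. Near Nectin3, Wt replicate 3, Wt_IGF1 and Wt replicate 4 had 70, 85 and 61 summit reads. In Diaph3 they had 70, 72 and 83. No EF_IGF1 or xeno library had a peak at either. The region near Ino80c, a subunit gene of the INO80 chromatin remodeller, had 62, 69 and 106 reads in these wild-type libraries and no peak in any EF, EF_IGF1 or xeno library.

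**Figure D2:**
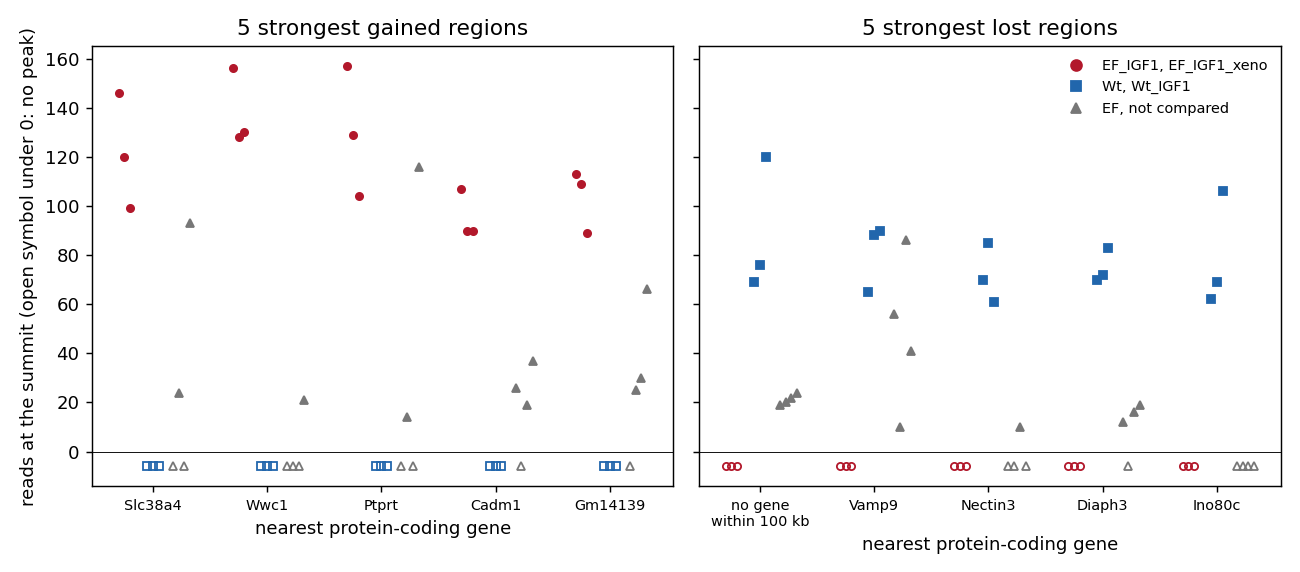
Reads at the peak summit in each library at the 5 strongest gained (left) and lost (right) regions, named by the nearest protein-coding gene; open symbols under 0 mark libraries with no peak. Gained summits held 89 to 157 reads in EF_IGF1 and xeno libraries, and lost summits 61 to 120 reads in Wt and Wt_IGF1 libraries.

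Protein-coding genes were named by the number of regions nearest to them within 100 kb. Such a count favours genes with many regions, so the total of each top gene is given beside it. Of 17781 genes with a region, 2865 had at least 1 gained, 4501 at least 1 lost and 1072 both. Ptprt had 17 gained and 0 lost of its 41 regions. EF_IGF1 replicate 1, EF_IGF1 replicate 2 and EF_IGF1_xeno called 33, 22 and 19 of the 41, against 0, 1 and 0 in Wt replicate 3, Wt_IGF1 and Wt replicate 4. EF replicate 4 called 30 of them, and EF replicates 1, 2 and 3 called 0, 3 and 2. Runs were also counted over regions called in at least 2 of 3 libraries of one group and none of the other, with no region of the other group between. The longest such run towards the EF_IGF1 and xeno libraries, 21 regions over 1029 kb, lay at Ptprt.

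Gabbr2, which encodes part of the receptor GABA-B, and Arhgap42, a GTPase-activating protein, had 10 gained and 0 lost regions each. Their totals were 35 and 66 regions. The strongest Gabbr2 region had 129, 92 and 87 reads in the EF_IGF1 and xeno libraries and was not called in EF replicate 4, but was in EF replicates 1, 2 and 3 (21, 19 and 16 reads). Col22a1, a collagen gene, and Crybg1 had 7 gained and 0 lost regions each, of 23 and 34. The strongest Col22a1 region, with 63, 32 and 37 reads, was called in no EF or wild-type library. Cobl, an actin nucleator, had 6 gained and 5 lost of 42 regions.

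Tle3, a corepressor of the Groucho family, Camta1, a calmodulin-binding transcription activator, and Trappc9, of the TRAPP trafficking complex, had 6 gained regions each. Of their 48, 64 and 38 regions, 1, 2 and 0 were lost. At Pax8, a transcription factor of thyroid and kidney, 5 of 19 regions were gained and 0 lost. Its strongest region, 5514 bp from a start, had 85, 91 and 74 reads in the EF_IGF1 and xeno libraries. It had 64 reads in EF replicate 4.

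The genes with most lost regions were counted in the same way. Lrmda, known from melanocyte differentiation, had 23 lost and 0 gained of 90 regions, and Cacna1c, an L-type calcium channel subunit, 20 lost and 0 gained of 51. At the strongest Cacna1c region (chr6:118954952-118955635), Wt replicate 3, Wt_IGF1 and Wt replicate 4 had 66, 73 and 44 reads, and no EF, EF_IGF1 or xeno library had a peak. At the strongest Lrmda region they had 46, 67 and 80 reads, and EF replicates 1, 3 and 4 were called there too (66, 75 and 25 reads).

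Dlg2, a synaptic scaffold, and Prkg1, a cGMP-dependent kinase, had 17 lost regions each, of 78 and 77. Rbms3, an RNA-binding protein gene, had 16 of 78. Arhgap26, another GTPase-activating protein, had 15 lost of 93 regions, and Gabrg3, a GABA-A receptor subunit, 15 of 29. Glis3, a zinc finger transcription factor, had 14 of 71, and Ccbe1, an extracellular protein of lymphatic growth, 14 of 46. Adam12, a metalloprotease, had 13 of 36. Prkg1 alone among these 10 genes also had a gained region, 1 in number. Of the runs towards the wild-type libraries, one of 20 regions lay at Cdh11, the cadherin of mesenchymal and bone cells, and the longest, of 33, at Zfp521, a repressor of EBF1 and bone factors. The 3 windows of 1 Mb with most lost regions began at 13 and 66 Mb on chromosome 18, with 22 and 21, and at 22 Mb on chromosome 14, with 20, near Zfp521, Ccbe1 and Lrmda.

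By chromosome, chromosome 15 stood apart. It was the 1 chromosome of 20 with more gained than lost regions, 383 (5.19%) and 303 (4.10%) of 7384. On the other chromosomes gained regions made up between 1.90% (X) and 3.67% (chromosome 4). Without the library labelled S_220_IGF1, chromosome 15 had 417 gained and 334 lost regions. Its 3 richest windows of 1 Mb began at 74, 78 and 99 Mb, with 21, 16 and 15 gained regions, near genes that include Psca, Ly6e, Elfn2, Card10, Aqp2 and Aqp5.

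Chromosome 15 also had a higher local background at shared regions. At 1314 regions called in all 6 libraries, the median local background relative to that over all such regions was 1.48, 1.43 and 1.44 in EF_IGF1 replicates 1 and 2 and EF_IGF1_xeno, against 0.994, 0.942 and 0.955 in Wt replicate 3, Wt_IGF1 and Wt replicate 4. The means, 1.45 ± 0.0249 and 0.964 ± 0.0271 (SD, n = 3 each), did not overlap (exact permutation test, two-sided, p = 0.1, the smallest possible). With 20 chromosomes compared, of which 11 did not overlap, Benjamini-Hochberg adjustment could only raise this p. The EF libraries lay between, at 1.14, 1.27, 1.17 and 1.21 for replicates 1 to 4.

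Chromosome 18 showed the highest share of lost regions, 8.67%, with 2.01% gained. Its relative background was 0.729, 0.842 and 0.908 in the EF_IGF1 and xeno libraries, against 1.06, 1.02 and 1.05 in the wild-type libraries of the comparison. The local background was solved at called peaks and not measured between them. It may depend on how many DNA copies a cell holds, on how open the DNA is and on reads of nearby peaks. These cannot be told apart here, and the part of the background in the calls was not tested.

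**Figure D3:**
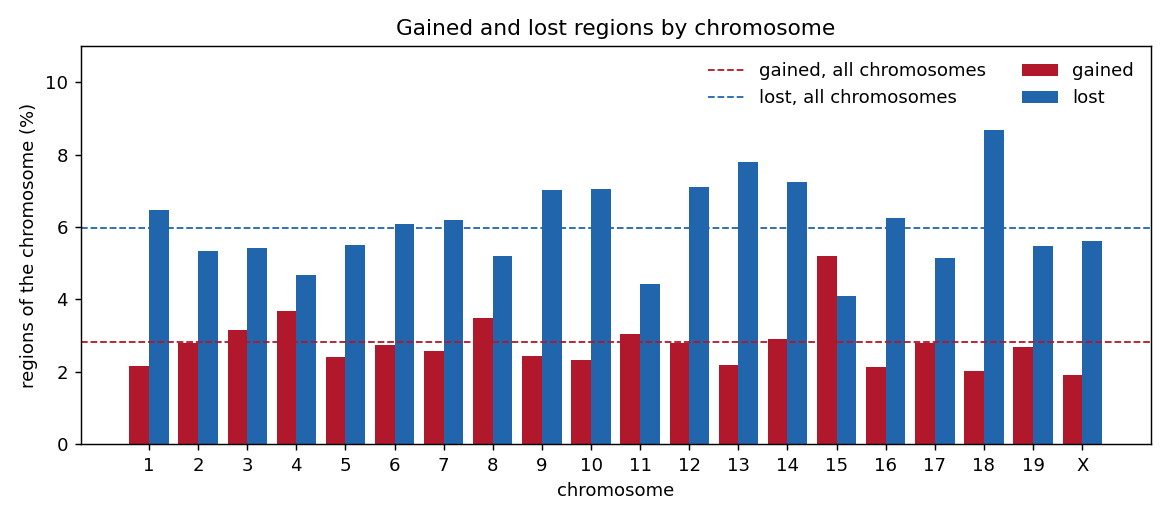
Percent of the merged regions of each chromosome that were gained (left bar) or lost (right bar), with dashed lines at the shares over all chromosomes (2.81% and 5.96%). Chromosome 15, at 5.19% gained and 4.10% lost, is the 1 chromosome where gained exceeds lost, and chromosome 18 has the highest lost share.

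On chromosome 9, peaks and background were raised in the EF_IGF1 and xeno libraries around Yap1 (chr9:7931999-8004638, minus strand). Between 7.5 and 10 Mb, EF_IGF1 replicate 1, EF_IGF1 replicate 2 and EF_IGF1_xeno had 130, 138 and 86 peaks, against 39, 72 and 71 in Wt replicate 3, Wt_IGF1 and Wt replicate 4. The median local background of these peaks was 5.49, 6.22 and 6.92 times the genome background in the EF_IGF1 and xeno libraries. In the wild-type libraries it was 2.06, 1.61 and 1.79 times. The means were 6.21 ± 0.717 and 1.82 ± 0.223 (SD, n = 3 each), with no overlap. The bounds of the stretch were set with this difference known, so it is given with no test.

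The 4 EF libraries lay at 1.61 to 1.7 times in the same stretch, within or near the wild-type values. Peaks just outside the stretch had 1.47, 1.62 and 1.05 times the genome background in the EF_IGF1 and xeno libraries. In steps of 0.1 Mb, the medians from 0.1 to 1.8 Mb past the Yap1 start lay between 1.67 and 16.6 in the EF_IGF1 and xeno libraries and between 1 and 2.75 in the wild-type libraries of the comparison. Single steps of EF replicate 4 reached 8.54, with a median over steps of 1.56. At 1.9 Mb the EF_IGF1 and xeno libraries had 1 peak each, with a background of 1.49, 1.00 and 1.00 times. Over the whole of chromosome 9, the relative background at shared regions was lower in the EF_IGF1 and xeno libraries (0.910 ± 0.0399) than in the wild-type libraries (1.09 ± 0.0289, SD, n = 3 each, exact permutation test, two-sided, p = 0.1).

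Peaks shared by all 6 libraries were stronger there too. At 18 shared regions, the median summit reads relative to those over all shared regions were 1.29, 1.49 and 1.43 in the EF_IGF1 and xeno libraries, against 0.826, 0.866 and 0.900 in the wild-type libraries (means 1.41 ± 0.101 and 0.864 ± 0.0370, SD, n = 3 each). Of 247 regions in the stretch, 28 (11.3%) were gained and 8 (3.24%) lost. The gained regions lay at Arhgap42 (10), Cfap300 (5), Cep126, Cntn5 and Trpc6 (3 each) and Yap1 (2). Trpc6 encodes a calcium-permeable channel and Cntn5 a contactin.

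**Figure D4:**
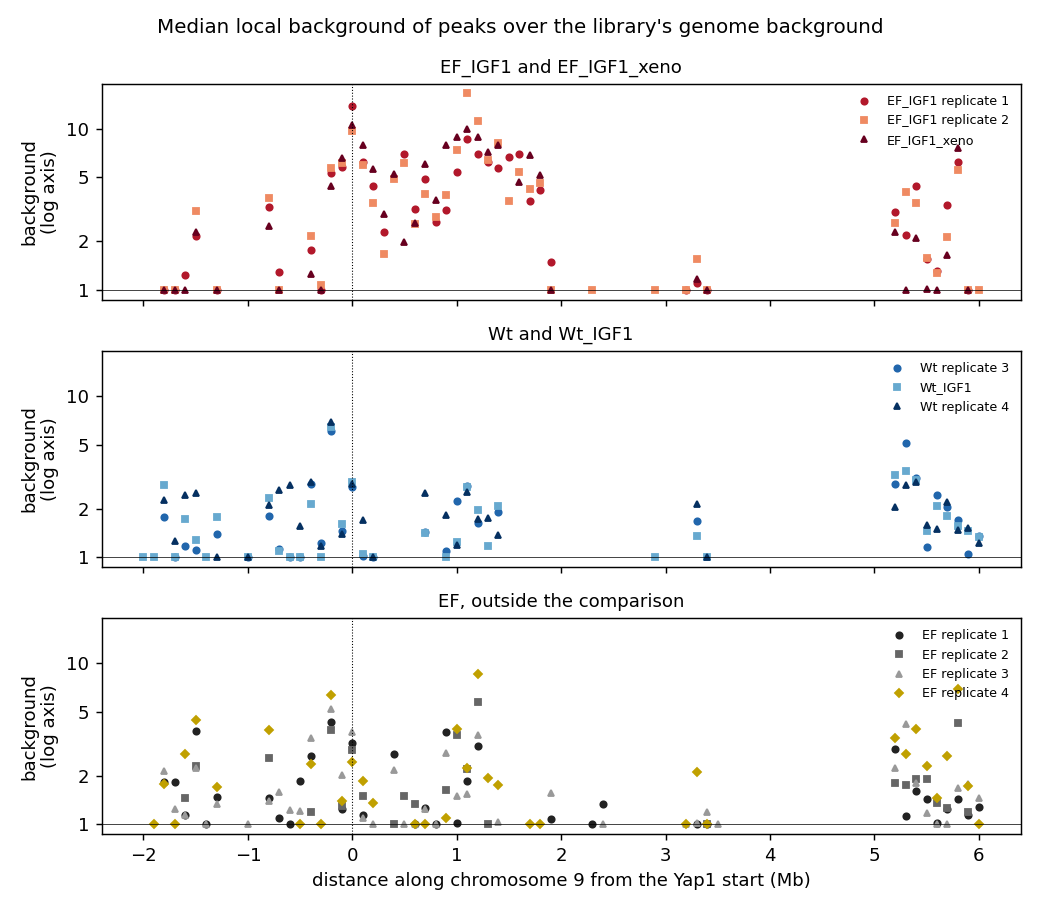
Median local background of peaks in steps of 0.1 Mb, as a multiple of the library's genome background (log axis), by distance along chromosome 9 from the Yap1 start (dotted line; positive is toward higher coordinates), in EF_IGF1 and xeno (top), Wt and Wt_IGF1 (middle) and EF libraries (bottom). From 0.1 to 1.8 Mb the EF_IGF1 and xeno medians over steps were 5.39, 4.77 and 6.03, against 1.52, 1.24 and 1.72 in Wt replicate 3, Wt_IGF1 and Wt replicate 4.

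A second stretch of chromosome 9, from 53 to 54 Mb, had a background of 5.73, 4.87 and 6.83 times the genome background in the EF_IGF1 and xeno libraries, against 1.93, 1.04 and 1.43 times in the wild-type libraries. It was chosen for this difference, which is given with no test. Its peaks numbered 56, 55 and 38, against 16, 28 and 25. Of 89 regions, 11 were gained and 1 lost, with 5 gained at Slc35f2, a solute carrier gene, and 3 at Elmod1. Of 1509 windows of 1 Mb with at least 5 shared regions, 6 had a relative background at least 2 times higher in every EF_IGF1 and xeno library than in any wild-type library, and 0 were as much lower. At 1.5 times, 24 windows were higher and 22 lower. The 6 began at 8, 9 and 53 Mb on chromosome 9, 35 and 44 Mb on chromosome 15 and 89 Mb on chromosome 4.

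At Yap1 itself, 2 regions were gained and 4 lost of 21. The gained region inside the gene (chr9:7965462-7966205) had 75, 92 and 89 summit reads in EF_IGF1 replicates 1 and 2 and EF_IGF1_xeno and no peak in the 3 wild-type libraries. EF replicate 4 had 31 reads there and EF replicate 2 had 9. The 4 lost regions held 8 to 11 summit reads in Wt replicate 3, 10 to 30 in Wt_IGF1 and 15 to 31 in Wt replicate 4. These reads are not scaled for depth, which differed between the groups, so gained and lost summits cannot be compared in height. Gained and lost regions alike lay where the background of the EF_IGF1 and xeno libraries was raised. Its part in these calls was not tested.

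Gene lists are described by their shares of gained and lost regions, beside 2.81% gained and 5.76% lost over the 136519 regions with a protein-coding gene within 100 kb. These are descriptions with no test. In the Hippo core list, 18 of 351 regions were gained (5.13%) and 22 lost (6.27%). Wwtr1, which encodes the YAP1 paralogue TAZ, had 2 gained and 0 lost regions. The angiomotin genes Amotl1 and Amotl2 had 3 gained regions each, and Amotl2 1 lost, while Vgll4, a TEAD repressor, had 1 gained and 4 lost.

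Among YAP and TEAD targets, 30 of 580 regions were gained (5.17%) and 47 lost (8.10%), both above the shares over all regions. Gained regions lay near 19 of the 28 genes and lost regions near 18. This list and the Hippo core list share genes, among them Amotl1 and Amotl2, with 3 gained regions each. Their shares are not separate observations. Ankrd1 and Crim1 had 3 gained and 0 lost regions each, whereas Rbms3 held 16 of the 47 lost regions. Ccn2, the matrix protein CTGF, had 1 gained region (12, 17 and 16 reads in the EF_IGF1 and xeno libraries) and 3 lost. The strongest of these 3 had 19, 25 and 18 reads in Wt replicate 3, Wt_IGF1 and Wt replicate 4.

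In the IGF pathway, 12 of 569 regions were gained (2.11%) and 37 lost (6.50%), near the shares over all regions. Igf1, the ligand, had 0 gained and 4 lost of 32 regions. The strongest (chr10:87805618-87806226) had 13, 32 and 54 reads in Wt replicate 3, Wt_IGF1 and Wt replicate 4, and also 33, 8, 24 and 22 reads in EF replicates 1 to 4. Igf1r, the receptor, had 1 gained and 4 lost of 53. The gained Igf1r region lay 830 bp from a start and had 56, 54 and 50 reads in the EF_IGF1 and xeno libraries, 43 in EF replicate 4 and 33 in Wt replicate 2. Foxo3, a transcription factor that AKT restrains, and Rptor, an mTORC1 subunit, had 1 gained and 5 lost regions each, and Igf2bp1, an RNA-binding protein, 3 gained and 0 lost.

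Tumour suppressor and cell cycle genes had 14 gained (5.24%) and 22 lost (8.24%) of 267 regions. Within 10 kb of a gene the gained share was 2.84%, beside 2.66% over all regions. At Cdkn2a and Cdkn2b, which encode the inhibitors p16 and p15 and the ARF protein, 7 of 24 regions were lost and 1 gained. EF_IGF1 replicate 1, EF_IGF1 replicate 2 and EF_IGF1_xeno called 4, 7 and 1 of the 24, against 9, 13 and 14 in Wt replicate 3, Wt_IGF1 and Wt replicate 4. The lost region at a Cdkn2a start (chr4:89281998-89282493) had 23, 33 and 51 reads in the wild-type libraries, and 38 and 48 reads in EF replicates 1 and 3. The lost region at the Cdkn2b start had 21, 50 and 49 reads in the wild-type libraries, and 33 and 48 in EF replicates 1 and 3. EF replicates 2 and 4, of line S_221, had no peak at either start, as the 3 EF_IGF1 and xeno libraries. Both genes lie in the window of chromosome 4 at 89 Mb, where the relative background was 1.68, 1.47 and 1.5 in EF_IGF1 replicates 1 and 2 and EF_IGF1_xeno, against 0.649, 0.692 and 0.713 in Wt replicate 3, Wt_IGF1 and Wt replicate 4. Its part in these calls was not tested.

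Ccnd1, the cyclin of early cell cycle, had 4 gained and 1 lost of 20 regions. Its strongest gained region (chr7:144970753-144972038) had 109, 58 and 61 reads in the EF_IGF1 and xeno libraries, 43 in EF replicate 4, 15 in EF replicate 3 and 26 in Wt replicate 2. Cdkn1a, the inhibitor p21, had 2 gained and 0 lost regions. Cdk6 had 2 gained and 4 lost.

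Targets of EWS::FLI1 known from human Ewing sarcoma had 17 gained (3.60%) and 32 lost (6.78%) of 472 regions, near the shares over all regions. The list was not split by whether the fusion activates or represses a gene, so the pooled shares show no direction. Vrk1, a kinase, had 3 gained and 0 lost regions, and Prkcb, protein kinase C beta, 2 gained and 0 lost. Nkx2-2, a target in the human tumour, had 0 gained and 0 lost of 3 regions, and no region lay near Nr0b1. Bcl11b had 0 gained and 3 lost, and Myc 0 gained and 2 lost.

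Extracellular matrix and adhesion genes had few gained and many lost regions, 10 (1.51%) and 61 (9.23%) of 661. Ccbe1 held 14 of the lost regions and Has2, a hyaluronan synthase, 5. Tnc, Fbn1 and Loxl1, which encode tenascin C, fibrillin and a crosslinking enzyme of elastic fibres, had 0 gained and 4 lost regions each, and Postn and Dcn 0 gained and 3 lost each. TGF-beta and FGF genes ran the same way, with 7 gained (1.54%) and 38 lost (8.35%) of 455. Tgfbr3, the co-receptor betaglycan, had 0 gained and 6 lost regions. Its strongest had 30, 34 and 66 reads in Wt replicate 3, Wt_IGF1 and Wt replicate 4.

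WNT, hedgehog and BMP genes had 22 gained (3.51%) and 50 lost (7.97%) of 627 regions. Gli3 and Gli2, transcription factors of hedgehog signalling, had 11 and 6 lost regions beside 1 and 3 gained. Sfrp1, a secreted WNT antagonist, had 0 gained and 7 lost. Tcf7l2, a nuclear partner of beta-catenin, had 4 gained and 3 lost. Inflammatory and AP-1 genes had 9 gained (2.69%) and 15 lost (4.48%) of 335 regions.

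The mesenchymal and limb markers were read beside the cell type of the label. Of their 409 regions, EF_IGF1 replicates 1 and 2 and EF_IGF1_xeno called 36.9%, 37.2% and 28.4%, against 38.4%, 50.6% and 48.9% in Wt replicate 3, Wt_IGF1 and Wt replicate 4. In the same order, 36.8%, 39.5% and 26.7% of all regions were called in the EF_IGF1 and xeno libraries, and 35.3%, 51.9% and 43.7% in the wild-type libraries. The EF_IGF1 and xeno libraries called 45.5%, 43.6% and 38.2% of epithelial regions, and 24.0%, 27.9% and 17.8% of hematopoietic regions. Calls near the share of all regions cannot check a cell type. The mesenchymal and limb list had 15 gained (3.67%) and 33 lost (8.07%) regions. Lost regions lay near 14 of its 27 genes and gained regions near 11. Cdh11 held 7 and Cxcl12, a chemokine of marrow stroma, 6 of the 33 lost regions, each with 0 gained. Meis1, a limb and blood homeobox gene, had 4 gained and 0 lost.

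Prrx1, a homeobox gene of limb mesenchyme, had 1 gained and 3 lost of 26 regions. The gained region lay 1490 bp from a start, with 80, 72 and 65 reads in the EF_IGF1 and xeno libraries and 84 in EF replicate 4. The strongest lost region had 39, 38 and 44 reads in the wild-type libraries. Of the 4 EF libraries, only EF replicate 4 had a peak at the gained site, and none had a peak at this lost site.

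Adipogenic genes had the highest gained share among the 3 lists of mesenchymal lineages, 22 (7.64%) of 288, beside 25 lost (8.68%). Lep, the hormone leptin, had 4 gained and 0 lost of 15 regions. The strongest Lep region (chr6:29073448-29073813) had 38, 40 and 35 reads in the EF_IGF1 and xeno libraries and no peak in any other library of the series. Lpl, lipoprotein lipase, and Klf5 had 3 gained and 0 lost each, and Cebpb 3 gained and 1 lost, while Ebf1 had 2 gained and 10 lost and Pparg 0 gained and 2 lost. Within 10 kb of a gene, the gained share of the list was 3.98%. Osteogenic genes had 5 gained (2.16%) and 6 lost (2.59%) of 232 regions, and chondrogenic genes 5 gained (2.38%) and 12 lost (5.71%) of 210.

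Anterior HOX genes had 9 gained (12.9%) and 1 lost (1.43%) of 70 regions, spread over 8 of the 18 genes with a region. At a Hoxa5 start (chr6:52203199-52204663) the EF_IGF1 and xeno libraries had 27, 33 and 30 reads, EF replicate 4 had 35 and EF replicate 2 had 15. At a Hoxa3 start they had 33, 21 and 17 reads and EF replicate 4 had 36. Hoxb6 had 2 gained regions, the stronger with 53, 47 and 36 reads in the EF_IGF1 and xeno libraries. Posterior HOX genes, which pattern the trunk and limbs, had 4 gained (5.97%) and 2 lost (2.99%) of 67. Within 10 kb of a gene their gained share was 1.89%, below the 2.66% over all regions, against 15.4% for anterior HOX genes. The strongest of these lay near Hoxc13 (96, 42 and 49 reads) and Hoxb13 (71, 44 and 43 reads).

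Markers of other cell types were read as well. Hematopoietic genes had 2 gained (1.55%) and 12 lost (9.30%) of 129 regions. EF_IGF1 replicates 1 and 2 and EF_IGF1_xeno called 24.0%, 27.9% and 17.8% of these, against 35.7%, 39.5% and 37.2% in the wild-type libraries, and Wt replicate 2, outside the comparison, called 65.1%. Ptprc, the leukocyte antigen CD45, had 0 gained and 4 lost of 18 regions, and Runx1 1 gained and 5 lost of 55. Their part in the lost regions was not tested. Endothelial genes had 0 gained and 5 lost of 81 regions, smooth muscle and pericyte genes 1 and 4 of 52, epithelial genes 4 and 3 of 55, neural genes 3 and 2 of 55, and muscle genes 2 and 0 of 22. The 2 muscle regions lay near Des, and 3 of the 4 epithelial ones near the keratin genes Krt8 and Krt18 on chromosome 15.

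**Figure D5:**
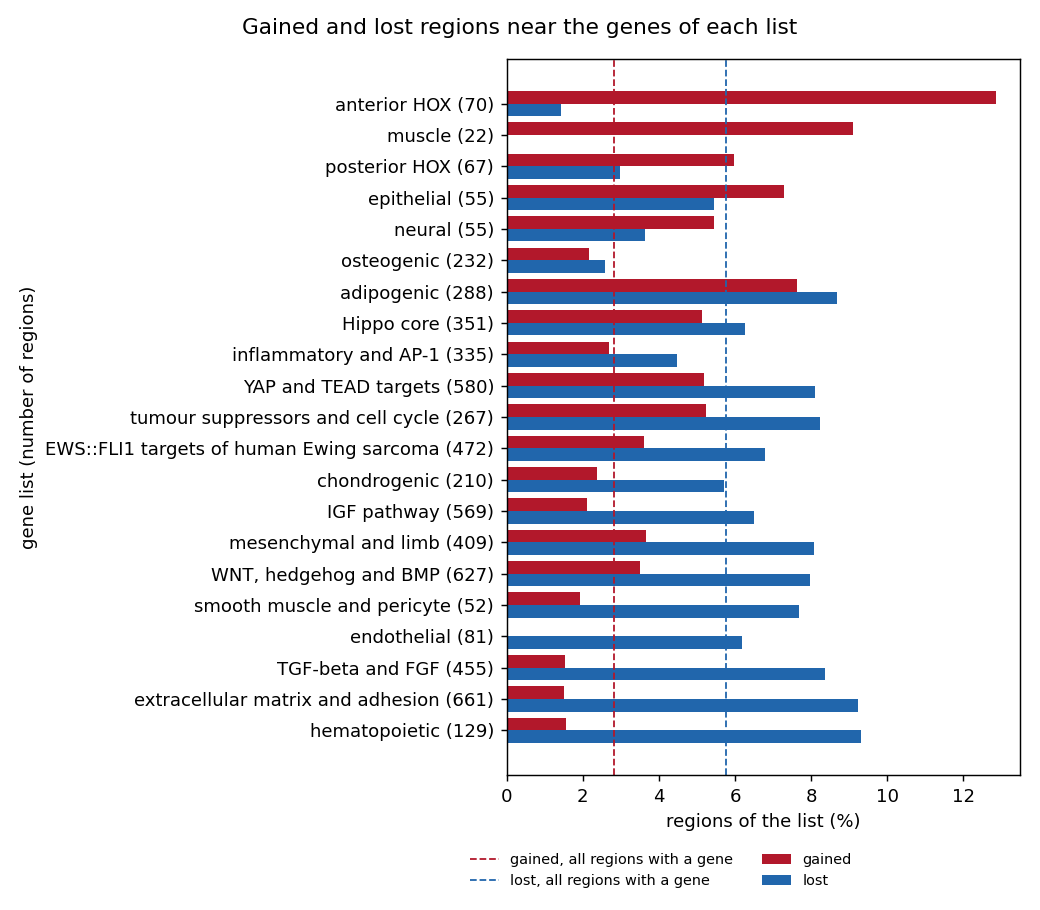
Percent of the regions of each gene list that were gained (upper bar) or lost (lower bar), with dashed lines at the shares over all regions with a protein-coding gene within 100 kb (2.81% and 5.76%); the number of regions of a list is in brackets. Anterior HOX genes reach 12.9% gained and 1.43% lost, and extracellular matrix and adhesion genes 1.51% gained and 9.23% lost.

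Promoter windows under gained and lost regions were read for motif letters beside those called in all 6 libraries. The ETS core CCGGAA stood in 11% of the 163 gained windows (95% Clopper-Pearson interval 6.68 to 16.9), 14.9% (12.4 to 17.7) of the 733 lost windows, 31.6% of the 10501 windows called in all 6 and 15% of all 32619. The AP-1 motif TGANTCA stood in 14.1% (9.16 to 20.4) of gained, 9.55% (7.52 to 11.9) of lost, 5.17% of shared and 7.85% of all windows. TEAD letters, GGAATG, stood in 17.8% (12.3 to 24.5) of gained, 12.3% (9.99 to 14.9) of lost, 11.6% of shared and 14.6% of all. GGAAGGAA stood in 5.52% (2.56 to 10.2) of gained, 4.09% (2.78 to 5.79) of lost, 3.24% of shared and 3.69% of all. For the TEAD letters in lost windows and for GGAAGGAA in both sets, the intervals included the share of shared windows. The share of all windows lay inside the intervals of the ETS core, the TEAD letters and GGAAGGAA in both sets. It also lay inside that of AP-1 in lost windows, and below that of AP-1 in gained windows. Windows that share a region, such as those of Als2cl and Tmie, were counted separately, so the intervals are too narrow. No adjustment was made for reading several motifs in both sets. In the same order, TGACGTCA stood in 0.613%, 1.64%, 3.54% and 1.8% of windows. GGAAGGAA holds the GGAA of the ETS core without its first 2 letters, and a match is a description of letters and not a bound site. The Aim2 window printed above holds an ETS core and a TEAD match, and the Vamp9 window an AP-1 match.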

How the data were processed

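Each deposited list describes its peaks by the authors' fold, a linear ratio over the local background, by a score, and by a p-value and a q-value written as −log10. These are the authors' values per peak and served to describe, rank or filter within a list. The submitters' processing notes name MACS2, without a version, and GRCm38.p3 as the build. Alignment, read filters, transposase shift, caller options and read totals were not given in the sources used here.

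Summit reads and local background were solved from each peak's fold, (reads + 1) over (background + 1), and its Poisson p-value, with 100% of peaks solved within 0.001 of the deposited −log10 p. The solving and merging steps were checked on simulated data. Peaks overlapping by at least 1 bp were merged, with chromosomes 1 to 19 and X kept. Genes came from RefSeq (GRCm38.p6, 21631 protein-coding genes), the nearest within 100 kb. Promoter windows matched 17274 of these genes and none on chromosome 18, which was left out of distances to starts. Library values were compared by exact permutation (20 label orders), in SciPy 1.17.1, pandas 2.3.3 and NumPy 2.4.6.

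Groups came from the genotype label, lines from titles, and replicate numbers from accession order. The members and the gene lists were chosen with earlier results of these data known. In each direction the text names the 10 named genes with most regions, the 5 strongest regions, the 3 richest windows of 1 Mb, and members of the 21 lists. Prrx1, Cdkn2a, Nkx2-2, Nr0b1, Igf1r, Igf1 and Yap1 were given whatever their values. List members other than the first 4 of a list by number of regions, and the second stretch of chromosome 9, were picked after their values were seen. Alternatives were a −log10 q of at least 5, windows of 250 bp around summits, equal list lengths, other merging and call rules, and leaving out each library.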

Additional observations from a re-analysis of the deposited data

Results flagged for a closer look

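EF replicate 4 called 69.7% of the gained regions, and stood apart from the other 3 EF libraries, which called between 14.1% and 18.4%. This library carries the line name S_221 and was sequenced on the flowcell of the comparison. In Wt replicate 1, 67.6% of peak summits lay within 1 kb of a gene end, far from the other 3 Wt libraries. That library held 7723 peaks, the fewest of the 12, and took no part in the comparison. Of 12 sets of 4 libraries examined in this way, 2 had such a library, and chance gives about 1 in 20.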

How the results depend on the processing

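Of 189 alternative values, 175 kept within the bounds set for them. Shares of single gene lists made up 126 of the 189, and 123 of these kept within the list's own Clopper-Pearson interval. Calls of gained and lost regions in other libraries were bounded by the SD over the 4 EF libraries (27.2 and 12.7 percentage points). Such wide bounds are easily kept, so the count does not measure how firm the results are. Some list shares crossed the share over all regions: gained posterior HOX (1.89% against 2.66%) and osteogenic regions (3.36%) within 10 kb of a gene, and lost Hippo regions at a −log10 q of at least 5 (5.06% against 5.51%). With equal list lengths, lost regions numbered 5275, just below the 5347 gained, and the cause was not tested. With peaks in at least 2 of 3 libraries against none, gained regions numbered 8641 and lost regions 20198. Leaving out each library gave 4410 to 6927 gained and 9299 to 14405 lost regions, with the highest values without EF_IGF1_xeno and without Wt replicate 3. Fewer libraries make a weaker rule by construction. The gene-end share was 2.34% of gained and 4.44% of lost regions within 250 bp, 22.5% and 17.6% within 5 kb, and for lost regions 8.88% by distance to a start, an alternative chosen after seeing the data. Without chromosome 15 there were 3925 gained and 8829 lost regions, and without the 2 stretches of chromosome 9 there were 4269 and 9123, both also chosen after seeing the data. No paired analysis was possible because replicate numbers came from accession order and the calls rest on no test of single regions. Read totals are unknown, so a missing peak sets no limit on accessibility.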
